A study of Mus musculus with 46 samples.

Results

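In microglia, the brain's own macrophages, the colony-stimulating factor (CSF) receptor and ligand genes were followed over diet and genotype. The genes were listed by name, and all 7 were found among the 54134 genes of the count table: the receptor genes Csf1r, Csf2ra, Csf2rb, Csf2rb2 and Csf3r and the ligand genes Csf1 and Il34. Of these 7, 6 passed the filter on low counts with 12121 genes in all. Il34 did not pass it. The design crossed AD mice (24 libraries), which are 5xFAD mice, with wild type (WT) mice (22 libraries) on 3 diets. The diets were HAMSAB, a resistant maize starch rich in amylose to which acetate and butyrate are attached, a zero fiber diet and a control diet. Each diet and genotype had 4 libraries of females (F) and 4 of males (M), except zero fiber WT males with 2. The 5xFAD strain is a transgenic model of Alzheimer's disease whose transgenes are driven in neurons by a Thy1 promoter. The labels give no age, time on the diet or isolation method. Whether a library stands for 1 mouse is not stated either, so the p-values cover the spread among libraries, which may be partly technical. Libraries are named by diet, genotype, sex and a replicate number that pairs no libraries.

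Csf1r is a receptor tyrosine kinase of macrophages that binds 2 ligands, Csf1 and Il34, and microglia are known to need its signal to survive. In mouse brain, Il34 is known to be made mainly by neurons and Csf1 by glial cells. Csf2ra is the ligand-binding chain for the cytokine Csf2 (GM-CSF) and signals together with the beta chain Csf2rb, which is shared with the receptors for Il3 and Il5. Csf2rb2 is a second beta chain of mice that works with the Il3 receptor. Csf3r binds Csf3 (G-CSF) and is best known for its role in making neutrophils.

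The 2 beta chain genes are close copies of each other, which bears on how reads were assigned to them. In the GENCODE annotation of GRCm38, the build of the count table, Csf2rb lies on the plus strand of chromosome 15 (78325752 to 78353847) and Csf2rb2 on the minus strand (78282507 to 78305721). Of 2628 aligned coding bases 2503 were identical (95.2%), and the longest identical run was 242 bases. Of all 75-base words in their transcripts, 7.15% of those of Csf2rb and 10.6% of those of Csf2rb2 occurred in both genes. Below are coding windows of 60 bases that share 1 base at their border, the first with 0 differences between the genes and the second with 13, with the differing bases in capitals. A read lying wholly in the first window matches both genes equally, and one covering the second can be placed.
Csf2rb (chr15:78338834-78338893, plus strand) and Csf2rb2 (chr15:78294438-78294497, minus strand), first window: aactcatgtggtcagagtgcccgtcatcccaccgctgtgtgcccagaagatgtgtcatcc
Csf2rb (chr15:78338893-78338952, plus strand), second window: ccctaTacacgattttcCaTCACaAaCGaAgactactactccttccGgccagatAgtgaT
Csf2rb2 (chr15:78294379-78294438, minus strand), second window: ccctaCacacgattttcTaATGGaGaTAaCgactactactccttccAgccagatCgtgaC
How reads that match several genes were counted is not given in the sources used here, so the split of counts between Csf2rb and Csf2rb2 is uncertain.

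The median library held 2344837.5 counts, the shallowest 52114 and the deepest 6950429. The shallowest, zero_fiber_AD_M replicate 2, was followed by 783849 and 1174514. A count of 0 there allows a level of up to 46.1 CPM (3 counts; CPM are counts scaled to a common library size by the total count and edgeR's TMM factor), against 0.430 CPM in the deepest library, for counting error only. The sex genes went against the label in 1 library, the library labelled zero_fiber_AD_F replicate 1, which was kept under its label. In zero_fiber_AD_F replicate 2 the pattern was mixed: the Y-linked genes Ddx3y and Eif2s3y summed to 25.8 CPM beside 838 CPM of Xist, where the next highest sum in a library labelled F with a female pattern was 7.74 CPM. No 2 replicates held identical counts, and none of 67 pairs agreed within sampling noise (lowest chi-square per degree of freedom 1.62). The summed level of 8 microglial marker genes, among them P2ry12, Tmem119 and Cx3cr1, was 16508 to 30038 CPM over the 46 libraries. Ly6g was the only one of 64 marker genes of 10 cell types with 0 reads everywhere.

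Csf1r was by far the most abundant family member. It averaged 8842 ± 850 CPM (SD, n = 46) and ranked 6th of the 12121 genes tested by CPM. Compared per exon length, Csf1r stood at 1531 ± 147 CPM per kb (24th of 12009 genes with a length). Csf3r followed at 61.1 ± 8.48 CPM per kb, Csf2ra at 26.96 ± 4.94, Csf2rb at 15.4 ± 2.65, Csf2rb2 at 8.07 ± 1.34 and Csf1 at 4.76 ± 1.31 CPM per kb. Il34 averaged 0.0610 CPM per kb. The ranges over libraries of Csf1r and of Csf3r overlapped with no other member's, while those of Csf2ra, Csf2rb, Csf2rb2 and Csf1 overlapped with their neighbours in this order. Csf2rb met the range of Csf2rb2 (at most 10.9 CPM per kb) only through the library of lowest depth, at 4.22 CPM per kb from 2 reads, and its next lowest value was 11.4 CPM per kb. Il34 (at most 0.826 CPM per kb) met the range of Csf1 only through that same library, where both were at 0; the next lowest Csf1 value was 2.58 CPM per kb.

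**Figure D1:**
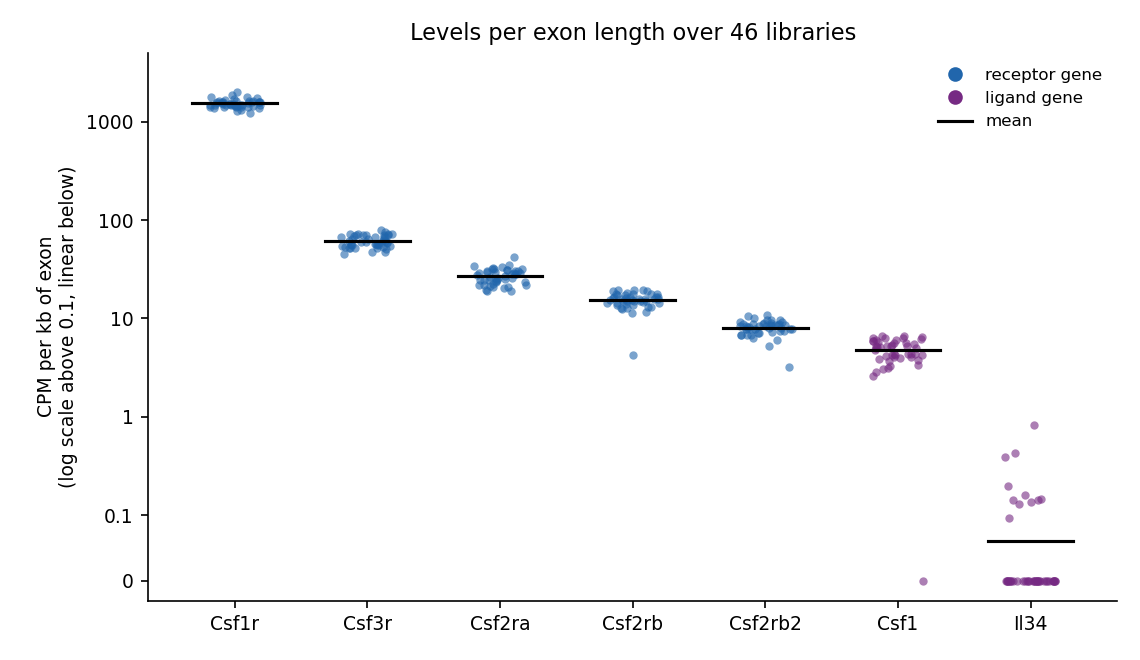
Level of each family gene in CPM per kb of exon in all 46 libraries (1 point each; log scale above 0.1, linear below; black bar, mean). Csf1r lies far above the other receptor genes, Csf1 below them, and most Il34 points are at 0.

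Csf1 (chromosome 3, 107741048 to 107760469), the ligand made by glia, was higher in WT mice on HAMSAB than in WT mice on zero fiber. Its levels were 22.1 CPM at lowest, 30.9 at the median and 33.1 CPM at highest in the 8 HAMSAB WT libraries, against 15.1, 18.99 and 23.1 CPM in the 6 zero fiber WT libraries. The 2 groups overlapped: HAMSAB_WT_M replicate 4, at 22.1 CPM, lay below the highest zero fiber WT libraries, and the other 7 HAMSAB libraries lay above all 6. The means were 29.6 ± 3.91 CPM on HAMSAB and 19.4 ± 3.11 CPM on zero fiber (SD, n = 8 and 6). Csf1 rose 1.56-fold (95% interval 1.24 to 1.96; log2 0.64 ± 0.16, SE; edgeR quasi-likelihood test, Benjamini-Hochberg adjusted p = 0.0270). It was the 1 member called, meaning an adjusted p under 0.05, of the 6 tested, where 2.19% of all genes tested were called. The counts behind these values were 29 to 231 reads per HAMSAB library and 34 to 55 per zero fiber library.

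The Csf1 call depended on single libraries. Csf1 was called in 7 of the 14 edgeR fits that left out 1 of the compared libraries. Without zero_fiber_WT_M replicate 2 the log2 difference was 0.50 and the adjusted p 0.352. That fit left 1 library in its group, assumed to vary like the others, and called 1 gene in all, against 265 with every library. The adjusted p was 0.0670 without zero_fiber_WT_M replicate 1 (log2 0.80, 12 genes called). It was 0.0616 without zero_fiber_WT_F replicate 3, 0.0519 without zero_fiber_WT_F replicate 4, 0.0615 without HAMSAB_WT_M replicate 2, 0.0602 without HAMSAB_WT_M replicate 3 and 0.0576 without HAMSAB_WT_F replicate 1. The log2 difference was above 0 in all 14 fits.

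**Figure D2:**
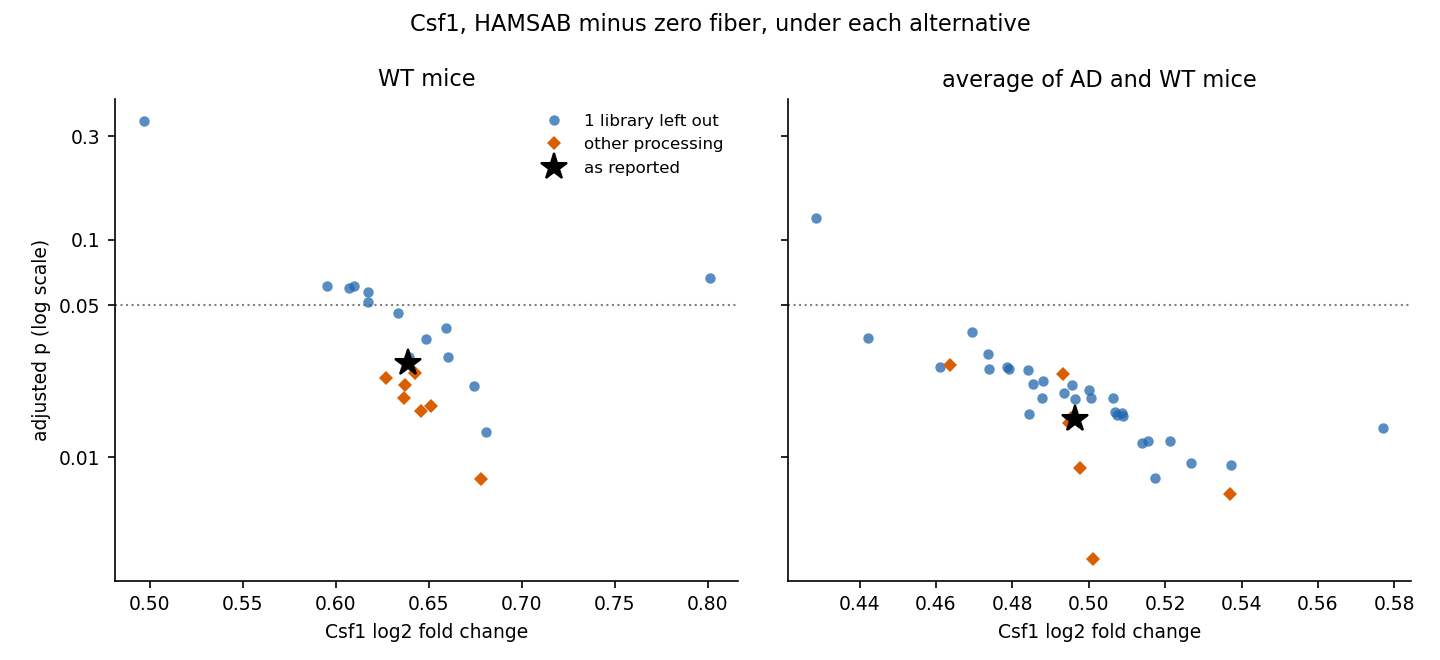
Adjusted p (log axis, dotted line at 0.05) against the log2 fold change of Csf1, HAMSAB minus zero fiber, in WT mice and averaged over both genotypes. The star is the value as reported, blue points leave out 1 library each and orange diamonds change the processing: in WT mice 7 of 14 blue points lie above the line, in the average 1 of 30.

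In AD mice Csf1 did not pass the test between the same diets. Its lowest, median and highest levels were 20.8, 27.3 and 35.2 CPM in the 8 HAMSAB AD libraries, against 0, 21.3 and 31.9 CPM in the 8 zero fiber AD libraries. The 0 came from the library of lowest depth, where it allows up to 46.1 CPM, and the next lowest value was 13.6 CPM, in zero_fiber_AD_F replicate 2, the library with mixed sex genes. The log2 difference was 0.35 ± 0.15 (SE, 95% interval 0.05 to 0.66; edgeR adjusted p = 0.389), none of the 6 members was called, and 0.239% of all genes were. Without that library and the one whose sex genes went against its label, it was 0.29 (adjusted p = 0.537). Without zero_fiber_AD_F replicate 2 alone it was also 0.29 (adjusted p = 0.553). The difference between the genotypes in this diet effect was not called either (log2 -0.28 ± 0.22 SE, 95% interval -0.74 to 0.17; edgeR adjusted p = 0.794; 1.08% of all genes called). It was -0.45 without zero_fiber_WT_M replicate 1 and -0.14 without zero_fiber_WT_M replicate 2. Averaged over both genotypes, a comparison chosen after the values within each were seen, Csf1 rose 1.41-fold on HAMSAB over zero fiber (95% interval 1.21 to 1.65; log2 0.50 ± 0.11 SE; edgeR adjusted p = 0.0150). It was again the 1 member called of 6, with 1.02% of all genes called. Of 30 fits without 1 library, 29 kept that call, and without zero_fiber_WT_M replicate 2 the log2 difference was 0.43 (adjusted p = 0.126).

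Against the control diet, no difference of Csf1 passed the test. The lowest, median and highest values on control were 21.2, 28.6 and 34.6 CPM in AD mice and 16, 27.6 and 33.7 CPM in WT mice (8 libraries each), so both diets overlapped with control in both genotypes. On zero fiber minus control the log2 difference of Csf1 was -0.40 ± 0.15 in AD mice and -0.42 ± 0.16 in WT mice (SE; edgeR adjusted p = 0.309 and 0.522). Averaged over the genotypes it was -0.41 ± 0.11 (SE, 95% interval -0.63 to -0.18; edgeR adjusted p = 0.0824). No member was called in these 3 comparisons, in which 0.0578%, 0.00825% and 0.363% of all genes were. The averaged difference did pass without the filter on low counts (adjusted p = 0.0422) and with a term for the series of the library's title number (0.0438). On HAMSAB minus control it was -0.04 ± 0.14 in AD mice, 0.22 ± 0.14 in WT mice and 0.09 ± 0.10 averaged (SE; edgeR adjusted p = 0.928, 0.529 and 0.646). No member was called there either, with 0.0743%, 0.281% and 4.52% of all genes called. These comparisons share their HAMSAB, zero fiber or control libraries.

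By mean level the 6 groups ordered as HAMSAB WT (29.6 CPM), control AD (28.1), HAMSAB AD (27.3), control WT (25.8), zero fiber AD (21.9 without the library of lowest depth) and zero fiber WT (19.4 CPM). No neighbours in this order differed by more than the SD of either group.

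**Figure D3:**
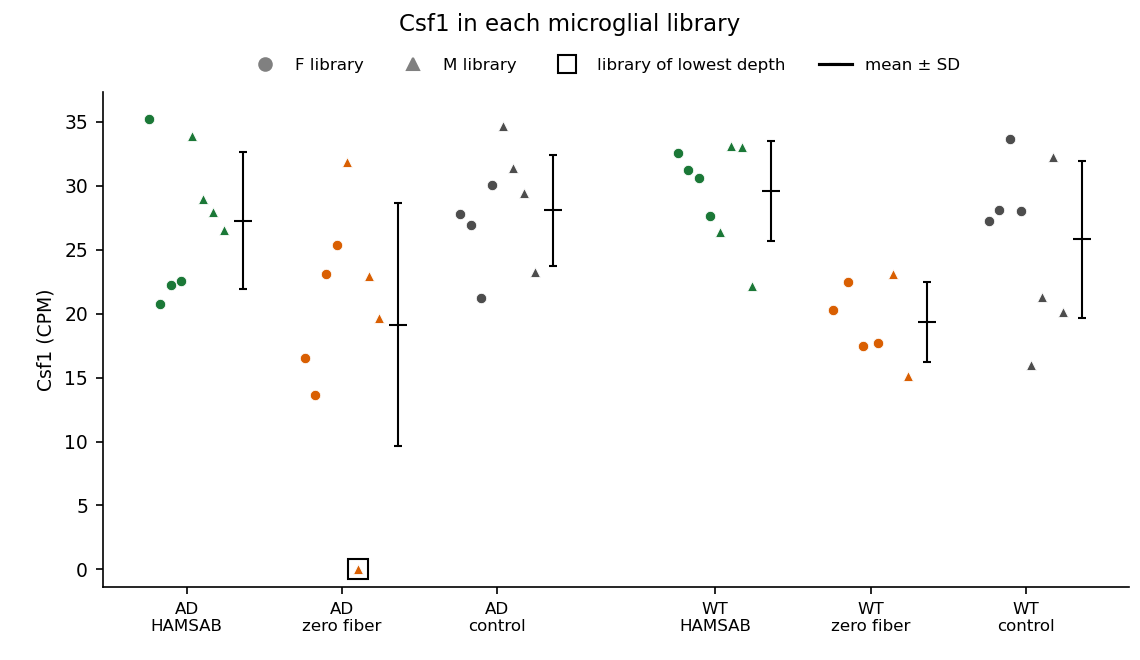
Csf1 in CPM in each library by genotype and diet (circles, F; triangles, M; black, mean ± SD; square, library of lowest depth). Of 8 HAMSAB WT points 7 lie above all 6 zero fiber WT points, and the point at 0 is a library of 52114 counts.

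Measures that could move with the Csf1 difference were set beside it. Title numbers fall below 2900 in 23 libraries, at 2900 or above in 22 and in neither series in 1, and the labels do not call these batches. Within the series below 2900, the mean log2 CPM of Csf1 was 0.62 higher in HAMSAB WT than in zero fiber WT libraries (5 and 4 libraries), and from 2900 it was 0.57 higher (3 and 2). In AD mice the differences were 0.39 (5 and 3 libraries, without that of lowest depth) and 0.10 (2 and 4). The summed level of 5 red blood cell genes was 8.84 to 140 CPM in HAMSAB WT and 65.4 to 681 CPM in zero fiber WT libraries. That of 8 microglial genes was 20610 to 23602 CPM and 22620 to 27962 CPM. Markers of cells that can also make Csf1 overlapped: 6 oligodendrocyte genes summed to 163 to 251 CPM in HAMSAB WT and 165 to 260 CPM in zero fiber WT libraries, and 6 astrocyte genes to 12.2 to 35.5 and 11.52 to 36.6 CPM. The 6 endothelial genes summed to 27.96 to 98.6 and 37.4 to 98.3 CPM. Most of this sum was Pecam1, which averaged 61.0 CPM over the 46 libraries, while the other endothelial genes averaged 0.02 to 2.03 CPM. In the oligodendrocyte sum Cnp, Mag and Mbp averaged 79.0, 49.5 and 41.6 CPM and Mog 0.30 CPM. The part of these measures in the Csf1 difference was not tested, and more RNA per cell cannot be told apart from a change in the mix of cells.

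Il34, the other ligand of Csf1r, was close to undetected. It had 15 reads in all, in 11 of 46 libraries, with at most 3 in a library. By group these were 1 read in HAMSAB AD, 4 in HAMSAB WT, 4 in zero fiber AD, 2 in zero fiber WT, 2 in control AD and 2 in control WT libraries. Differences of Il34 between groups were not tested. Il34 (chromosome 8, 110741829 to 110805924) shares 22 and 75 exon bases with the antisense genes Gm15894 and Gm15895, and the strand setting of the counts is not given in the sources used here. Among ligands of the other receptors, Csf2, Il3 and Il5 had 0 reads in all 46 libraries and Csf3 had 2. The summed level of 6 neuronal markers was 3.81 to 39.01 CPM.

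Csf1r, the receptor of both ligands, differed little between groups. Its means were 8907 ± 405 CPM in HAMSAB AD, 8370 ± 1137 in HAMSAB WT, 8817 ± 1012 in zero fiber AD, 8724 ± 416 in zero fiber WT, 9032 ± 377 in control AD and 9172 ± 1207 CPM in control WT libraries (SD, n = 8 each, 6 in zero fiber WT). All 6 groups overlapped, and the highest group mean was 1.10 times the lowest. The largest diet difference within a genotype was in WT mice, HAMSAB minus control, at log2 -0.13 ± 0.08 (SE, 95% interval -0.29 to 0.03; edgeR adjusted p = 0.517). With a term for the title series it was -0.05. On the scale of mean log2 CPM it was -0.02 within the series below 2900 (5 and 1 libraries) and -0.04 from 2900 (3 and 7). HAMSAB minus zero fiber was 0.01 in AD mice (95% interval -0.15 to 0.18) and -0.05 in WT mice (-0.23 to 0.13). In edgeR's fit the biological variation of Csf1r was 0.116 as a coefficient, lower than in all but 10.2% of the genes tested. Csf1r (chromosome 18, 61100598 to 61132149) shares 873 exon bases with Hmgxb3 on the other strand, which stood at 4.05 ± 2.08 CPM (SD, n = 46).

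Csf3r (chromosome 4, 126024550 to 126044440), the G-CSF receptor, ranged from 164 to 287 CPM over all libraries. Its means were 226 ± 31.6 CPM in HAMSAB AD and 207 ± 20.03 in HAMSAB WT, 224 ± 29.9 in zero fiber AD and 217 ± 36.9 in zero fiber WT, and 236 ± 29.1 in control AD and 213 ± 35.6 CPM in control WT libraries. AD minus WT was log2 0.13 on HAMSAB, 0.07 on zero fiber and 0.16 on control, and 0.12 ± 0.06 averaged (SE, 95% interval 0.01 to 0.24; edgeR adjusted p = 0.671). The averaged comparison was added after the values by diet were seen. Neutrophils are the cells best known for this receptor, and 8 neutrophil markers summed to 0 to 20.8 CPM per library (median 3.65). The sum of 0 fell in the zero fiber AD group, which holds the library of lowest depth. Ly6g was the 1 marker of the 8 at 0 in all 46 libraries. Cxcr2 had 296 reads in 45 libraries (mean 2.54 CPM), and S100a8 had reads in 17 (at most 9.09 CPM). The part of neutrophils in the Csf3r level was not tested.

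Csf2ra (chromosome 19, 61223957 to 61228429), the ligand-binding chain for GM-CSF, averaged 83.7 ± 11.2 CPM in HAMSAB AD and 79.2 ± 13.7 in HAMSAB WT, 72.9 ± 11.1 in zero fiber AD and 87.9 ± 18.6 in zero fiber WT, and 68.3 ± 13.2 in control AD and 75.1 ± 12.9 CPM in control WT libraries. Its lowest, median and highest values were 62.9, 86.8 and 98.8 CPM in HAMSAB AD, against 54.3, 66.2 and 84.7 CPM in control AD libraries. Of the 8 HAMSAB AD libraries 5 lay above every control AD library, and the other 3 overlapped with them. This difference was log2 0.30 ± 0.12 (SE, 95% interval 0.05 to 0.55; edgeR adjusted p = 0.231) and did not pass the test. Within the title series it was 0.36 below 2900 (5 and 4 libraries) and 0.38 from 2900 (2 and 4) on the scale of mean log2 CPM. In WT mice HAMSAB minus control was 0.10 ± 0.12 and zero fiber minus control 0.23 ± 0.14 (SE; edgeR adjusted p = 0.806 and 0.706).

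No difference of the beta chains passed the test. Csf2rb averaged 108 ± 18.4 CPM in HAMSAB AD and 117 ± 15.01 in HAMSAB WT, 101 ± 29.3 in zero fiber AD and 109 ± 16.3 in zero fiber WT, and 118 ± 16.7 in control AD and 118 ± 14.7 CPM in control WT libraries. Without the library of lowest depth, which held 2 reads of it, the zero fiber AD mean was 111 ± 7.72 CPM (n = 7). Csf2rb2 averaged 39.4 ± 3.91 CPM in HAMSAB AD and 37.7 ± 4.20 in HAMSAB WT, 34.4 ± 8.35 in zero fiber AD and 36.3 ± 7.94 in zero fiber WT, and 39.7 ± 6.75 in control AD and 41.6 ± 5.48 CPM in control WT libraries. The same library held 1 read of Csf2rb2, and without it the zero fiber AD mean was 37.1 ± 3.55 CPM. The widest diet difference within a genotype was log2 -0.12 for Csf2rb (HAMSAB minus control, AD; 95% interval -0.34 to 0.09) and -0.14 for Csf2rb2 (zero fiber minus control, WT; -0.38 to 0.10). Single libraries moved both values. Csf2rb2 was at -0.32 without zero_fiber_WT_M replicate 2 and at 0.01 without zero_fiber_WT_M replicate 1. Csf2rb was at -0.20 without HAMSAB_AD_M replicate 2 and at -0.06 without HAMSAB_AD_F replicate 4, and stayed below 0 under all 23 alternatives. With a term for the title series Csf2rb was at -0.06 and Csf2rb2 at -0.07. Per kb of exon, Csf2rb stood at 1.95 ± 0.37 times Csf2rb2 (SD, n = 45 libraries of at least 500000 counts), with group means from 1.80 to 2.06.

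**Figure D4:**
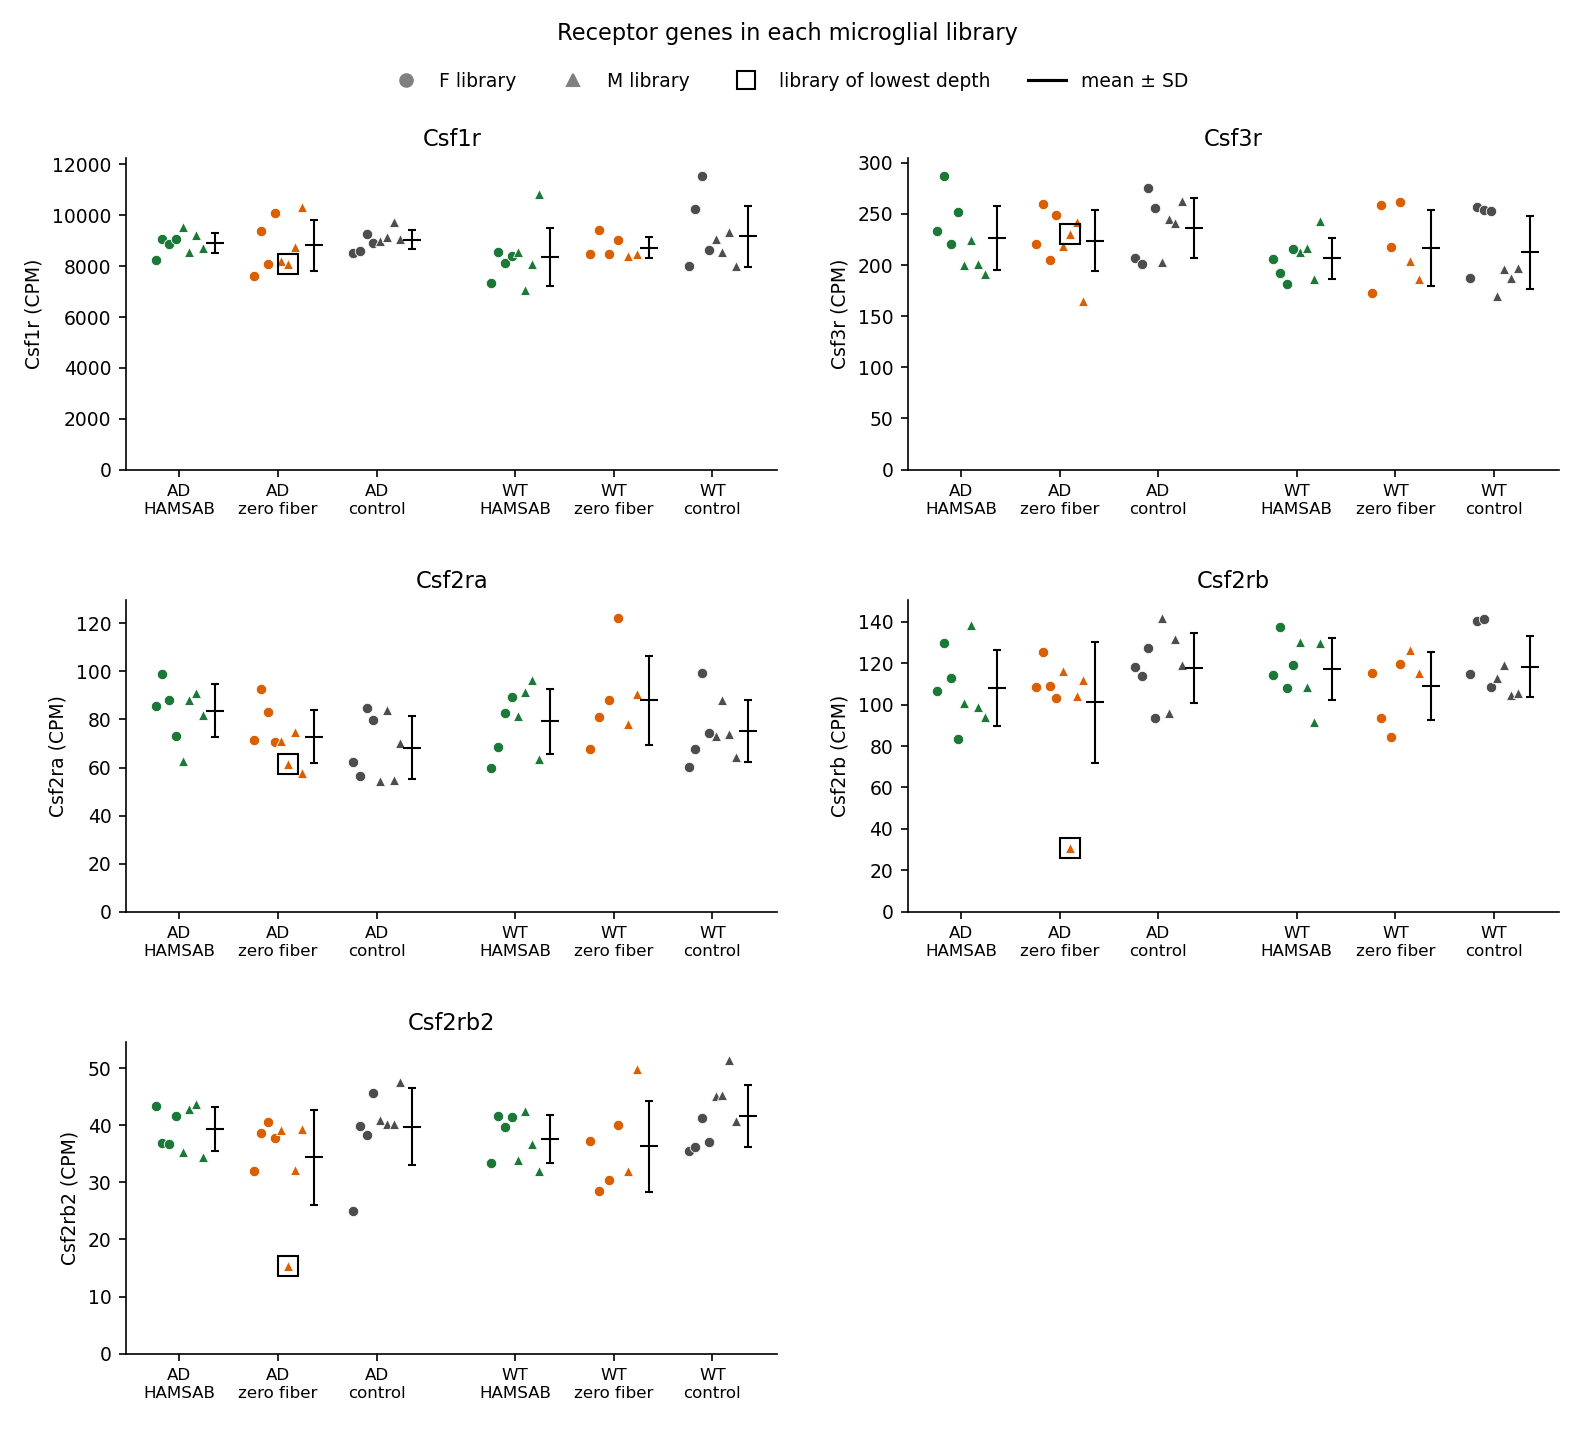
CPM of the 5 receptor genes in each library by genotype and diet (circles, F; triangles, M; black, mean ± SD; square, library of lowest depth). All groups overlap in every panel, and the library of lowest depth stands low for Csf2rb and Csf2rb2, where it held 2 reads and 1 read.

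Genotype and sex gave no call in the family. Of 6 members 0 were called in AD minus WT on HAMSAB (1.68% of all genes called), on zero fiber (0.00825%), on control (0%) and averaged over the diets (0.0165%). By edgeR, 655 genes (5.40%) had an unadjusted p under 0.05 in the control comparison, none of the 6 members among them. A set of 6 genes could have 0 by that share alone. DESeq2 and limma voom also called 0 genes in the control comparison. Without the filter on low counts edgeR called 149. Csf1 differed between AD and WT mice by log2 -0.14 ± 0.14 on HAMSAB, 0.14 ± 0.17 on zero fiber and 0.12 ± 0.14 on control (SE). The other 2 interactions of genotype and diet, against control, gave 0 calls over all genes (0% each) by edgeR and limma voom with the filter on low counts. DESeq2, run without that filter but with its own, also gave 0. In edgeR's filtered fit 670 genes (5.53%, HAMSAB) and 748 genes (6.17%, zero fiber) had an unadjusted p under 0.05, with 0 of the 6 members. These shares alone could again give 0 of 6. Without the filter edgeR called 66 and 207. Between F and M mice, averaged over the diets, 0 of 6 members were called in AD mice (0.0578% of all genes) and in WT mice (0.0743%). By label, Csf3r averaged 239 ± 28.5 CPM in F and 219 ± 27.7 CPM in M AD mice (SD, n = 12 each), and 221 ± 33.9 CPM in F and 200 ± 20.4 CPM in M WT mice (n = 12 and 10). The F minus M difference of Csf3r was log2 0.14 (95% interval -0.02 to 0.30) in AD and 0.15 (-0.02 to 0.32) in WT mice. The F AD libraries include the one whose sex genes went against its label. Without it the F AD mean was 241 ± 29.3 CPM (n = 11) and the difference 0.15 (edgeR adjusted p = 0.713).

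**Figure D5:**
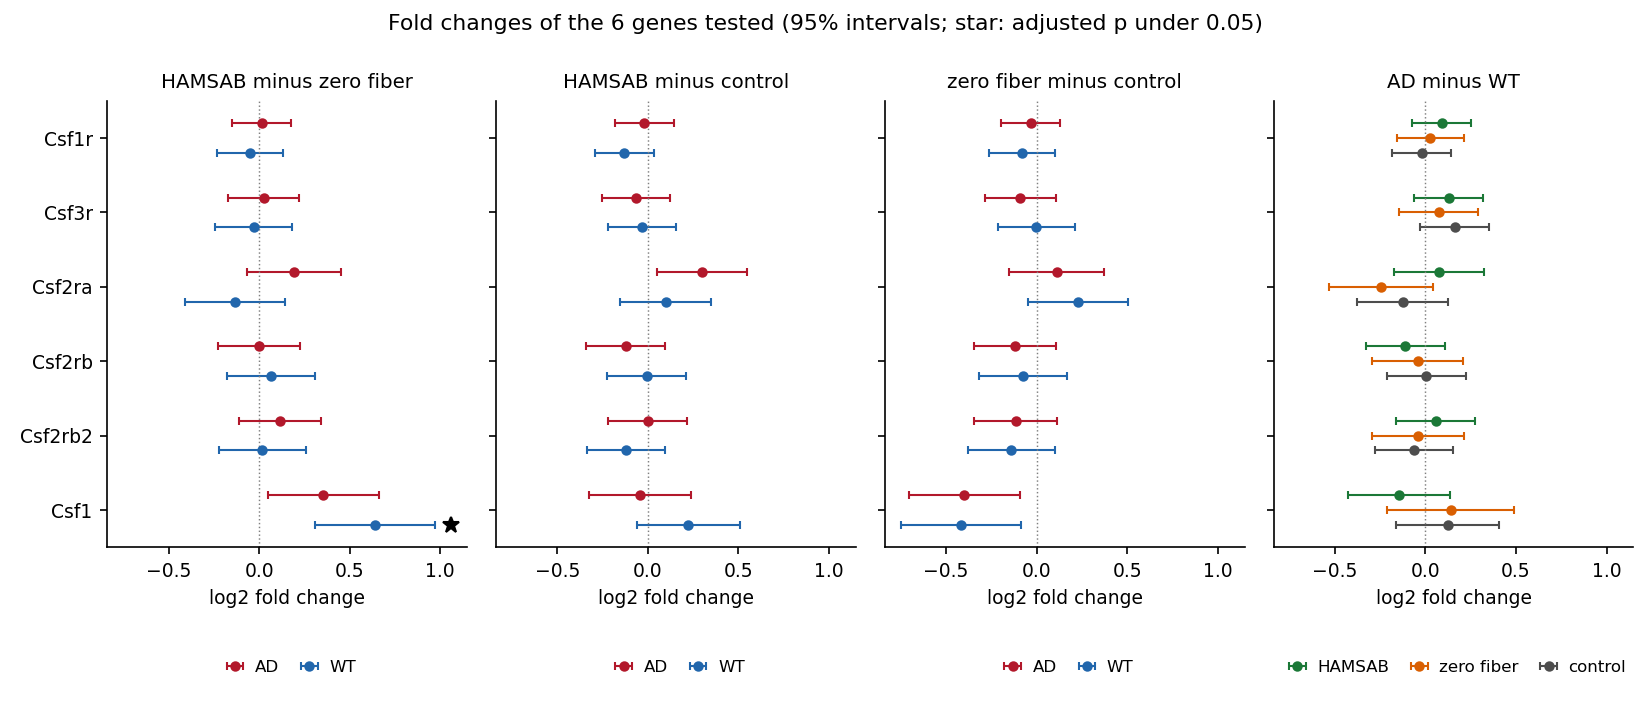
Log2 fold changes with 95% intervals of the 6 family genes tested, by comparison and by genotype or diet. The star marks the call of Csf1 in WT mice, HAMSAB minus zero fiber (log2 0.64), and all other points are uncalled.

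The genes around these receptors were read from 5 lists. Of 9 tested genes of the Csf1r gene's own regulators, among them Spi1, Irf8 and Runx1, 0 were called in any of the 18 comparisons by edgeR. Of 14 tested genes of the JAK-STAT pathway used by Csf2rb and Csf3r, 0 were called in any. Over all genes the share called was 0% to 4.52% by comparison, so lists of this size could have 0 calls by that share alone. Of 4 tested genes of the shedding list, which holds proteases that cut Csf1 and Csf1r from the cell surface and their helpers, 1 was called in WT mice on HAMSAB over zero fiber (2.19% of all genes). This was Adam10, a membrane protease, at 1742 ± 357 CPM in HAMSAB WT and 993 ± 302 CPM in zero fiber WT libraries (log2 0.93 ± 0.25 SE; edgeR adjusted p = 0.0329). In AD mice the list's median log2 change between these diets was 0.01, with 2 of 4 higher and 0 called. In WT mice, with Adam10 among the 4, it was 0.40, against 0.00 for all genes tested. Adam10 was called in 5 of 14 fits without 1 library, with log2 values from 0.86 to 1.03 and an adjusted p of 0.2197 without zero_fiber_WT_M replicate 2. It was also lost without zero_fiber_WT_M replicate 1, zero_fiber_WT_F replicates 1, 3 and 4, HAMSAB_WT_F replicate 1 and HAMSAB_WT_M replicates 1, 2 and 3 (0.0513 to 0.187). Of 4 tested related cytokines and receptors, among them Flt3 and Kitl, 0 were called in any comparison, against the same shares of all genes (0% to 4.52%).

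The list of genes that act on the signal of Csf1r mixes ones that pass it on with ones that dampen it, such as Cbl and Ptpn6. Of its 27 tested genes, 1 was called higher and 3 lower on HAMSAB than on control averaged over the genotypes (4.52% of all genes). The list's median log2 change was -0.09, against 0.00 for all genes, and 5 of 27 were higher. Some other lists stood low as well: the median was -0.09 for the JAK-STAT list (3 of 14 higher) and -0.13 for the Csf1r regulators (3 of 9). It was -0.07 for the related cytokines and receptors, from 4 genes (1 higher). The shedding list did not stand low, with a median of 0.06 (2 of 4). Fgr, a Src family kinase, rose to 4.24 ± 1.87 CPM in HAMSAB AD and 5.04 ± 2.32 in HAMSAB WT, against 2.43 ± 1.14 in control AD and 1.87 ± 1.07 CPM in control WT libraries (log2 1.08 ± 0.25 SE; edgeR adjusted p = 0.00995). These values rest on few counts, with 383 reads of Fgr in all, in 43 of the 46 libraries. In control WT libraries 3 counts correspond to 0.746 to 2.53 CPM. Syk, a kinase that couples to immune receptors, fell to 139 ± 23.01 CPM in HAMSAB AD and 131 ± 14.8 in HAMSAB WT, against 168 ± 27.9 in control AD and 169 ± 17.6 CPM in control WT libraries (log2 -0.32 ± 0.07 SE; adjusted p = 0.00786). Cbl, a ubiquitin ligase that directs Csf1r to degradation, fell by 0.36 ± 0.07 on the log2 scale averaged over the genotypes (SE; adjusted p = 0.00569). Within AD mice alone Cbl was not called, nor was any other of the 27 genes (0.0743% of all genes called). Within WT mice Cbl was called (-0.51 ± 0.10 SE; adjusted p = 0.0286; 0.281% of all genes called), at 235 ± 32.1 CPM in HAMSAB WT against 334 ± 76.4 CPM in control WT libraries. The title series were uneven there, with 5 HAMSAB WT libraries and 1 control WT library below 2900 and 3 and 7 from 2900. With a term for the series the adjusted p of Cbl within WT mice was 0.0576, and 1 gene was called in all, against 34 without the term. The averaged calls of Fgr, Syk and Cbl held with that term. Sos1, an activator of Ras, fell by 0.37 ± 0.11 averaged (SE; adjusted p = 0.0420), and was not called with the term (0.0514). In the 32 fits without 1 library the averaged calls held in all for Fgr, Syk and Cbl and in 15 for Sos1. Cbl within WT mice held in 10 of 16, and was lost without HAMSAB_WT_F replicate 1, HAMSAB_WT_M replicates 1, 2 and 3, control_WT_F replicate 2 and control_WT_M replicate 3 (adjusted p 0.0587 to 0.0967). Sos1 was lost without any 1 of 17 libraries (0.0553 to 0.0907): HAMSAB_AD_F 1 and 3, HAMSAB_AD_M 3 and 4, HAMSAB_WT_F 1, 2 and 4, HAMSAB_WT_M 1, 2 and 3, control_AD_F 2 and 4, control_AD_M 1 and 2, control_WT_F 2 and control_WT_M 3 and 4.

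Ptpn6, a phosphatase that dampens receptor signals, was the 1 of these 27 called on zero fiber minus control averaged over the genotypes (0.363% of all genes). The list's median log2 change was -0.09 here too, against -0.01 for all genes, with 5 of 27 higher, and both comparisons share the control libraries. Here the median was -0.10 for the JAK-STAT list (5 of 14 higher) and -0.004 for the Csf1r regulators (3 of 9). It was -0.18 for the related cytokines and receptors (2 of 4) and -0.05 for the shedding list (2 of 4). Only Ptpn6 is followed below. Ptpn6 stood at 349 ± 40.5 CPM in zero fiber AD and 337 ± 28.9 in zero fiber WT, against 415 ± 67.1 in control AD and 416 ± 65.7 CPM in control WT libraries (log2 -0.29 ± 0.07 SE; edgeR adjusted p = 0.0276). This call held in 22 of 30 fits without 1 library, and the adjusted p was 0.105 without zero_fiber_WT_M replicate 2. It was also lost without zero_fiber_WT_M replicate 1, zero_fiber_AD_M replicate 1, zero_fiber_AD_F replicate 3, zero_fiber_WT_F replicate 3, control_AD_F replicate 2, control_WT_F replicate 2 and control_AD_M replicate 3 (0.0516 to 0.0816). In the other comparisons 0 of the 27 were called, where 0% to 2.19% of all genes were.

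Apart from diet, genotype and sex, no pair of family members varied together past the test. Over 15 pairs, correlations of log2 CPM were taken after removing the 12 group means, in the 45 libraries of at least 500000 counts. Csf2ra and Csf3r gave the highest value (Pearson r = 0.45, permutation p = 0.0139, adjusted 0.129; Spearman rho = 0.43, permutation p = 0.0137, adjusted 0.192). Their r was 0.39 without the 2 libraries farthest from the median of Csf2ra, and 0.48 and 0.35 within the title series below and from 2900 (22 libraries each). Csf2ra and Csf2rb2 followed (r = 0.40, permutation p = 0.0172, adjusted 0.129; rho = 0.38, permutation p = 0.0256, adjusted 0.192; 0.34 without the 2 libraries; 0.28 and 0.56 within the series). Csf2ra and Csf2rb, which form 1 receptor, gave r = 0.00 and rho = -0.01 (permutation p = 0.996 and 0.947). The copies Csf2rb and Csf2rb2 gave r = 0.02 and rho = 0.08 (permutation p = 0.8997 and 0.631). Csf1 and its receptor Csf1r gave r = -0.15 and rho = -0.20 (permutation p = 0.399 and 0.265), with r = -0.02 without the 2 farthest libraries. None of the 15 pairs passed after adjustment.

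Genes with a pattern like each member over the 45 libraries were found by Spearman's rho of log2 CPM among 6989 genes whose log2 CPM averaged 4 or more. The libraries share their groups and depth, so these are descriptions. Csf1r was most like Rtn3 (rho 0.73), Scarb2 (0.69) and Sash3 (0.68). Csf1 was most like Siglecf (0.54), Slfn2 (0.52) and Trafd1 (0.51). Csf2ra was most like Tspan13 (0.61), Csf2rb most like Sh2b1 (0.63), Csf2rb2 most like Dnajc28 (0.56) and Csf3r most like Lefty1 (0.60).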

How the data were processed

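The data deposited by the authors were raw counts of reads per gene in 1 table with a column for each library. Per the submitters' processing notes, the tools were STAR 2.5.2b and featureCounts 1.5.2 and the build was GRCm38 (mm10). For the annotation release, strand and reads with several matches, settings were not given in the sources used here. From the counts, 1 model over all 46 libraries with 12 group means was fitted in R 4.3.3 (edgeR 4.0.16, filterByExpr, TMM, quasi-likelihood F test), with Benjamini-Hochberg adjustment over 12121 genes. Diet and genotype comparisons averaged the sexes equally. There were 14 planned comparisons and 4 averages added after the values were seen. For some genes edgeR reports a Poisson p where that is larger than the p of its F test. CPM used the whole table's totals, and exon lengths came from GENCODE (GRCm38). Alternatives used DESeq2 1.42.0, limma 3.58.1 (voom), other filters and fewer libraries. The fit was tried on simulated counts for 1 comparison only, HAMSAB minus zero fiber in WT mice. All genes had the same simulated spread (dispersion 0.05), with no title series effect. The other comparisons and the effects of single libraries were not covered by it. Members and lists were chosen with earlier results of these data known. Text names the 7 members, called list genes (up to 4 per list and comparison) and the genes most alike in pattern.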

Additional observations from a re-analysis of the deposited data

Results flagged for a closer look

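Within the 6 groups of diet and genotype, 42 sets of values (7 genes in 6 groups) were searched for a library far from the others by the gap to its nearest neighbour relative to the range, which chance alone would meet in about 1 in 20 sets of continuous values. Csf1r stood at 10823 CPM in HAMSAB_WT_M replicate 4, where the next HAMSAB WT library had 8573 CPM. Csf2rb stood at 30.7 CPM (2 reads) and Csf2rb2 at 15.4 CPM (1 read) in zero_fiber_AD_M replicate 2, the library of 52114 counts. Csf2rb2 stood at 25.03 CPM (64 reads) in control_AD_F replicate 1, where the next control AD library had 38.2 CPM. Il34 met the rule in 4 groups through 1 to 3 reads, where the zeros of the other libraries set the gap and the rate of 1 in 20 does not apply: 0.188 CPM in HAMSAB_AD_M replicate 2, 0.763 CPM in HAMSAB_WT_M replicate 4, 1.62 CPM in zero_fiber_AD_F replicate 4 and 0.841 CPM in zero_fiber_WT_M replicate 1.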

How the results depend on the processing

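Of 108 values (6 members in 18 comparisons), 105 were called under none of the alternatives, and the 3 others were the Csf1 values below. The log2 value of 40 changed sign under some alternative, each of them uncalled and at most 0.14 in size. Csf1 in WT mice, HAMSAB minus zero fiber, was called under all 7 other settings (log2 0.63 to 0.68, adjusted p 0.00794 to 0.0244). Without 1 library each its log2 value ran from 0.50 to 0.80, its adjusted p from 0.0130 to 0.352, and the number of members called from 0 to 1. The averaged Csf1 value was called under all 7 other settings (0.46 to 0.54, adjusted p 0.00340 to 0.0265) and ran from 0.43 to 0.58 without 1 library each, with 0 to 1 members called. For zero fiber minus control averaged, 1 member was called without the filter (Csf1, -0.42) and with a title series term (-0.46), against 0 as reported; the cause was not tested. None of the 15 correlations passed over all 46 libraries or with the title series removed. Over all genes, the counts called in the 18 comparisons were 0 to 548 as reported and 66 to 982 without the filter; HAMSAB minus zero fiber had 265 and 505 in WT mice and 124 and 464 averaged, HAMSAB minus control averaged 548 and 982, zero fiber minus control averaged 44 and 334, and AD minus WT on HAMSAB 204 and 464. The 3 comparisons with 0 calls had 149 (AD minus WT on control), 66 and 207 (interactions against control). Cbl within WT mice was not called in a fit of only the libraries compared (adjusted p = 0.0741) or with a title series term (0.0576), nor was Ptpn6 (0.0683 and 0.0732), and Sos1 was not called by DESeq2 (0.0539) or with that term (0.0514). No paired analysis was possible because the labels give no replicate numbers that groups share. Depth limits Il34 and the library of 52114 counts most.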
